A study of Mus musculus with 36 samples.

Results

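Livers of F/F mice, in which tryptophan 441 of the liver X receptor alpha (LXRalpha) is replaced by phenylalanine on both alleles, were compared between 4 mice fed a diet that promotes metabolic dysfunction-associated steatohepatitis (MASH) and given the LXR agonist T0901317, and 4 mice fed chow. These 8 samples were taken by their labels from the 36 of the series, which holds W/W, W/F and F/F mice on chow, on MASH diet with vehicle and on MASH diet with T0901317, 4 in each of 9 groups. All were males of 11 to 12 weeks. The treated mice ate the MASH diet (Teklad TD.96121) for 4 weeks and in its final 2 weeks were gavaged daily with 10 mg/kg T0901317. The chow mice received neither. Both groups carry the mutation, a CRISPR-made allele that is not limited to the liver. The labels name neither founder lines nor littermates, so p-values measure the spread between samples. In the main fit of genes this spread was pooled over the 36 samples in 9 groups, not taken from these 8 alone. The chow mice formed a cohort of their own, so diet, agonist, gavage and cohort cannot be told apart in this comparison. The F/F mice on MASH diet with vehicle, which received the gavage but no agonist, are given beside it. The comparison asks how far the liver of a mouse with mutant LXRalpha alone stays from the chow state when the diet is combined with the agonist.

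LXRalpha and its close relative LXRbeta are nuclear receptors that bind oxidised forms of cholesterol. When active they turn on genes that export sterols from cells (Abca1, Abcg1, Abcg5, Abcg8), remodel phospholipids (Lpcat3) and, through the factor SREBP-1c encoded by Srebf1, make fatty acids. The proteins SCAP and SREBP-2 work in the opposite sense: this pair drives cholesterol synthesis when sterols are scarce and is shut off when they are plentiful. In the liver, hepatocytes carry most of this metabolism, while Kupffer cells (the resident macrophages), incoming monocytes, stellate cells and bile duct cells shape inflammation, scar matrix and repair.

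Expression was deposited as TPM (a level per gene that is already scaled for gene length and for the total of its library). Depth recovered from the smallest TPM steps was 21.1 to 32.4 M reads in chow livers and 21.4 to 35.8 M reads in treated livers. Genes at 1 TPM or more numbered 14570 ± 467 in treated and 14070 ± 338 in chow livers (SD, n = 4 each, exact permutation p = 0.2, two-sided). Of all TPM, 47.0% ± 1.90 in treated and 49.96% ± 3.03 in chow livers came from the top 100 genes (SD, n = 4 each, exact permutation p = 0.2, two-sided, where 0.0286 is the smallest p that 4 against 4 allows). Hepatocyte identity was plain in all 8 livers, with Alb at 39816 to 60459.5 TPM on chow and 27040 to 41111 TPM with treatment. Single livers stood apart from their group in some genes, and most of the 8 did so in at least 1. Among them, chow mouse 1 was high in male-biased genes such as Mup7 and Hsd3b5, chow mouse 2 was high in Fga and Stat3 and low in Por and Abcg5, and treated mouse 3 was low in macrophage genes such as Lgals3 and Cd68. In whole liver, fewer cells of a type and less RNA per cell cannot be told apart.

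Neither receptor transcript passed the test. Nr1h3, the usual symbol of LXRalpha, was at 109, 95.4, 105 and 101 TPM in the 4 chow mice and 93.7, 102, 90.3 and 98.7 TPM in the 4 treated mice. Its log2 difference, treated minus chow on log2(TPM + 1), was -0.09 ± 0.10 (SE, limma adjusted p 0.526), and the groups overlapped. Nr1h2, the symbol that the study's description pairs with LXRalpha and that usually denotes LXRbeta, was at 30.4, 29.0, 38.1 and 38.0 TPM on chow and 44.9, 40.8, 36.6 and 37.3 TPM with treatment. The difference of 0.23 ± 0.10 (adjusted p 0.0717) passed the test without chow mouse 3 (adjusted p 0.0389), without chow mouse 4 (adjusted p 0.0377) or on recovered reads (adjusted p 0.0163). TPM of a gene do not show which residue 441 it encodes, so the allele could not be read from these values.

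Of 16638 genes tested, 6227 (37.4%) differed between treated and chow F/F livers at a limma adjusted p under 0.05, 4098 (24.6%) higher and 2129 (12.8%) lower in the treated mice. Of these, 742 rose and 354 fell by at least 2-fold. Genes are named below from lists of pathways and cell types and by a rule that took, in each direction, the 15 largest differences among genes called before and after rescaling, with separate groups and a group mean of 5 TPM or more. The higher calls made up 65.8% of the total as deposited and 53.8% (3371 higher, 2891 lower) after each library was rescaled by the median of its gene ratios. The median gene lay 0.11 above chow on the log2 scale as deposited and 0.04 above after rescaling. In 29.8% of all genes tested the 4 treated and the 4 chow mice did not overlap. Against the same chow mice, F/F mice on MASH diet with vehicle differed in 9279 genes (55.8%), 7737 (46.5%) higher and 1542 (9.27%) lower, or 4273 higher and 3549 lower after rescaling. Between the treated and the vehicle mice 5841 genes (35.1%) differed, 658 (3.95%) higher and 5183 (31.2%) lower in the treated mice. This count was 3244 without treated mouse 3 and 2712 (1385 higher, 1327 lower) after rescaling. The 3 comparisons share mice, so their values are set side by side and not tested against each other.

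**Figure D1:**
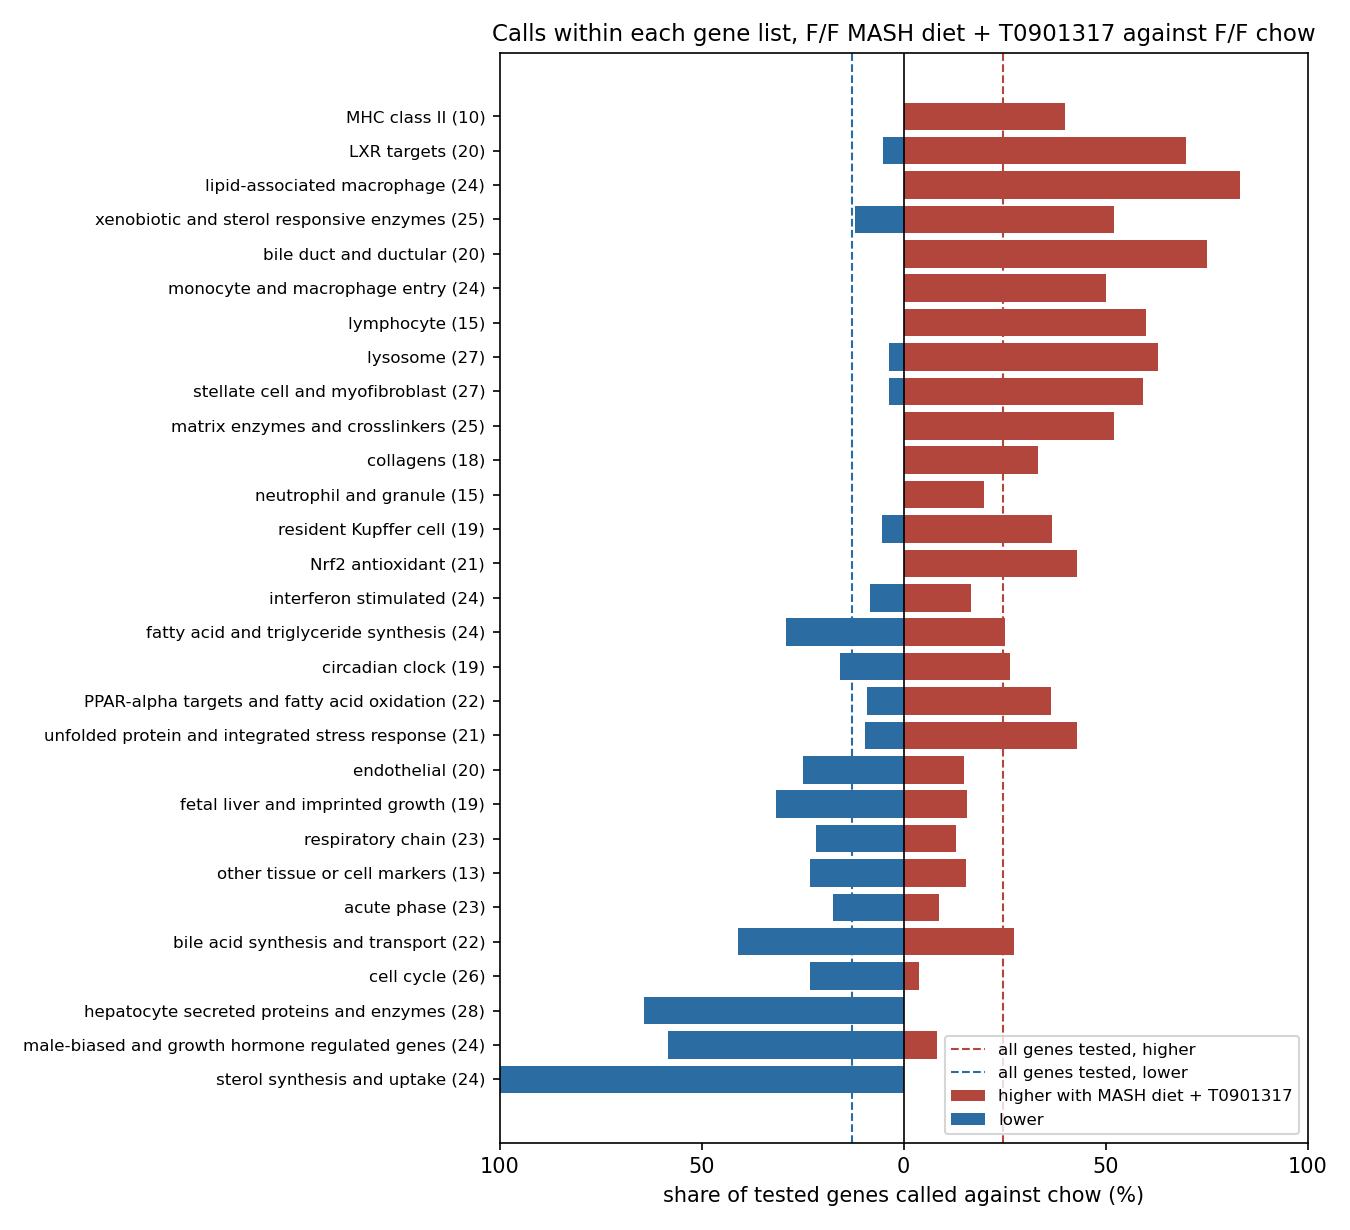
Share of the tested genes in each of 29 gene lists (rows, number tested in brackets) that were called higher (red, right) or lower (blue, left) in F/F mice on MASH diet with T0901317 than in F/F chow mice, in percent, ordered by median log2 difference. The dashed lines mark the share over all 16638 genes, 24.6% higher and 12.8% lower, and all 24 genes of sterol synthesis and uptake lie on the lower side.

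LXR target genes were mostly above chow in the treated livers. Of the 20 genes in this list 14 rose and 1 fell, beside 24.6% higher and 12.8% lower over all genes. The median log2 difference of the list was 1.20 against 0.11 for all genes, and 13 members rose after rescaling. Srebf1, which encodes the activator of fatty acid genes SREBP-1c, was at 17.3, 11.3, 13.2 and 15.2 TPM in the chow mice and 145, 146, 122 and 117 TPM in the treated mice. Scd1, the desaturase that makes oleate, was at 93.5, 53.3, 50.3 and 58.6 TPM on chow and 491, 697, 559 and 583 TPM with treatment. In both genes the lowest treated mouse lay far above the highest chow mouse, with log2 differences of 3.14 ± 0.22 (adjusted p 3.86e-12) and 3.20 ± 0.30 (adjusted p 2.52e-09). In the vehicle mice Srebf1 was at 22.5, 22.6, 23.3 and 26.6 TPM, below every treated mouse, and Scd1, at 11.2, 15, 13.7 and 12.6 TPM, lay below every chow mouse. In GRCm38, Srebf1 lies on the minus strand at chr11:60199089-60222581 and Scd1 on the minus strand at chr19:44394455-44407879.

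The sterol exporters of macrophages and other cells also rose. Abcg1 was at 3.94, 2.89, 5.18 and 4.29 TPM on chow and 57.0, 52.6, 36.9 and 41.5 TPM with treatment, a difference of 3.24 ± 0.24 (adjusted p 1.40e-11) with no overlap. Abcg1 was nearly as high in the vehicle mice, at 32.5, 35.1, 33.2 and 41.0 TPM, and the difference between treated and vehicle mice did not pass the test (0.38, adjusted p 0.204). Abca1, which loads cholesterol onto apolipoprotein A-I, was at 30.2, 38.0, 26.1 and 22 TPM on chow and 59.5, 64.7, 59.6 and 55.2 TPM with treatment (1.04 ± 0.15, adjusted p 5.81e-06). Lpcat3, which builds polyunsaturated phospholipids, was at 47.0, 29.1, 41.2 and 43.5 TPM on chow and 97.2, 122, 118 and 104 TPM with treatment (1.45 ± 0.14, adjusted p 5.46e-09). For both genes the groups were separate and the vehicle mice lay between them in mean. Vehicle values were 34.1, 39.99, 33.0 and 41.7 TPM for Abca1 and 63.7, 65.9, 58.5 and 61.6 TPM for Lpcat3. Other members that rose were Pltp, a phospholipid transfer protein (2.60 ± 0.37), Lpl, the lipoprotein lipase (2.52 ± 0.30), Mylip, a ubiquitin ligase (1.93 ± 0.18), Mlxipl, the carbohydrate-responsive factor ChREBP (1.35 ± 0.17), and Apoe (0.88 ± 0.11). Abca3, a lipid transporter, was the 1 member that fell (-0.60 ± 0.17).

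The exporters that move sterols from hepatocytes into bile stood otherwise. Abcg5 was at 120.2, 39.7, 103 and 90.6 TPM on chow, where mouse 2 was lowest by far, and at 119, 114, 151 and 112 TPM with treatment. The groups overlapped. Its difference of 0.59 ± 0.23 (adjusted p 0.0490) became 0.24 (adjusted p 0.364) without chow mouse 2 and missed the threshold in 11 of the 14 alternatives run, among them rescaling (adjusted p 0.0724). Abcg8, its partner in the same transporter, was at 103, 32.1, 82.8 and 75.4 TPM on chow and 83.8, 78.4, 111 and 93.9 TPM with treatment. Its difference of 0.42 ± 0.27 was not called (adjusted p 0.229). Against vehicle, where Abcg5 stood at 39.4, 37.4, 31.8 and 40.3 TPM and Abcg8 at 29.7, 28.0, 25.8 and 33.3 TPM, both were higher in all 4 treated mice (1.71, adjusted p 5.10e-06, and 1.61, adjusted p 8.54e-05).

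Fatty acid and triglyceride genes did not move as a group: 6 of 24 rose and 7 fell against chow, with a median of 0.16. Over all genes 24.6% were higher and 12.8% lower. The share that rose was thus near that of all genes, and the share that fell was larger. Fasn, the fatty acid synthase, was at 33.2, 12.7, 21.7 and 22.3 TPM on chow and 27.8, 26.0, 16.6 and 17.5 TPM with treatment, overlapping fully (0.01 ± 0.41, adjusted p 0.992). The vehicle mice lay below both at 7.63, 8.64, 11.0 and 7.93 TPM. Acaca, the acetyl-CoA carboxylase, likewise stood at 6.84, 2.97, 4.90 and 6.003 TPM on chow and 6.42, 5.14, 4.56 and 4.58 TPM with treatment (0.03 ± 0.18, adjusted p 0.9003). Neither was called, while their activator Srebf1 was above chow. Several genes that feed and extend the pathway fell. Acss2, which makes acetyl-CoA from acetate, was at 52.0, 16.4, 36.2 and 31.1 TPM on chow and 10.2, 10.6, 11.3 and 8.10 TPM with treatment (-1.56 ± 0.23, adjusted p 6.91e-06). Gpam, which starts triglyceride assembly, was at 71.0, 37.1, 54.6 and 51.9 TPM on chow and 19.1, 14.0, 13.5 and 12.6 TPM with treatment (-1.77 ± 0.31, adjusted p 5.84e-05). In both genes every treated mouse lay below every chow mouse. Acly, the citrate lyase, fell as well (-1.39 ± 0.26), as did the elongases Elovl6 (-1.07 ± 0.27) and Elovl3 (-4.74 ± 0.56), the latter with 53.0 to 213 TPM on chow and 1.15 to 8.69 TPM with treatment. Scd2, a second desaturase, rose (3.66 to 13.9 TPM on chow, 29.3 to 47.3 TPM with treatment, 1.92 ± 0.32, adjusted p 2.92e-05). Thrsp, a lipogenic regulator, was at 52.7, 7.37, 13.4 and 10.4 TPM on chow and 86.6, 97.0, 92.8 and 26.2 TPM with treatment, with chow mouse 1 above treated mouse 4, so that the groups overlapped (2.05 ± 0.67, adjusted p 0.0161, and 1.73 with adjusted p 0.0658 without chow mouse 2).

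Cholesterol synthesis was the most uniform result: all 24 genes for sterol synthesis and uptake were tested and all 24 were lower than on chow, with a median log2 difference of -2.09 and, after rescaling, again all 24 with a median of -2.15. The stretches upstream of 4 of these genes are shown because the members fell together. These windows hold letters that are known in promoters of this pathway, the CCAAT box and, in Hmgcs1, a sterol element. Sequences are from RefSeq (GRCm38.p6, which has the coordinates of the authors' build GRCm38), on the gene's strand, and lie outside the gene bodies of GENCODE M21. Capitals mark CCAAT or its reverse complement ATTGG in the first 3 and TCACCCCAC alone in Hmgcs1. They are Nsdhl (chrX:72918371-72918520, plus strand), Mvk (chr5:114444119-114444268, plus strand), Mvd (chr8:122443423-122443572, minus strand) and Hmgcs1 (chr13:119690169-119690267, plus strand).
Nsdhl: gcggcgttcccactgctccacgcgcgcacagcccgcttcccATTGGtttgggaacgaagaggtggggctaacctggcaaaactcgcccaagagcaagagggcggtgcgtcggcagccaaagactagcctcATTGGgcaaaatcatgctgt
Mvk: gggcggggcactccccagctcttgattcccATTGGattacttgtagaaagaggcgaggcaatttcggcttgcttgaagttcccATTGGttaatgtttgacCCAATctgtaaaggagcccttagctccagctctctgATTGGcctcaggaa
Mvd: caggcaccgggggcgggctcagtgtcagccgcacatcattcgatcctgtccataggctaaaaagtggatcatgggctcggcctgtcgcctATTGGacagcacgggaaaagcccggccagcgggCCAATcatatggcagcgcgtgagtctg
Hmgcs1: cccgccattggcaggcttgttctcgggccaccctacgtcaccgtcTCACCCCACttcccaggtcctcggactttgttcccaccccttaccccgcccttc
In the 250 bases before the start, CCAAT or ATTGG occurred in all 16 sterol genes that had a window and in 10133 of 27025 genes with a window (37.5%). At least 2 copies occurred in 9 of the 16 and in 11.5% of all genes. In the fatty acid and triglyceride list, CCAAT or ATTGG occurred in 12 of 18 genes with a window (66.7%), with at least 2 copies in 3. The sterol element, searched as TCACNCCAC on both strands, occurred in 1 of the 16 (6.25%), Hmgcs1, and in 331 of the 27025 (1.22%). It also occurred in 1 of the 18 fatty acid and triglyceride genes (5.56%), Mlxipl, a share near that of the sterol genes. A match is a description of these letters and not a binding site.

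Idi1, the isomerase that supplies the isoprene unit, was at 206, 117, 138 and 159 TPM on chow and 2.83, 1.61, 0.646 and 0.815 TPM with treatment. This was the largest fall among all genes that met the naming rule (-6.03 ± 0.23, adjusted p 2.94e-18), although 17.7% of its exon sequence also occurs in other annotated genes. Cyp51, the lanosterol demethylase, was at 364, 207, 287 and 317 TPM on chow and 16.8, 10.2, 7.21 and 10.4 TPM with treatment (-4.63 ± 0.22, adjusted p 5.39e-16). Nsdhl, which acts on the next sterol intermediates, was at 178, 92.5, 114 and 129.5 TPM on chow and 9.11, 6.997, 7.03 and 8.81 TPM with treatment (-3.82 ± 0.15, adjusted p 6.88e-18). In these 3 genes the highest treated mouse lay far below the lowest chow mouse. Hmgcs1, the synthase that makes HMG-CoA, was at 839, 352, 499 and 628 TPM on chow and in a narrow band of 69.1, 64.6, 62.0 and 64.3 TPM with treatment (-3.07 ± 0.21, adjusted p 3.86e-12). Log2 differences were -3.82 ± 0.17 for the squalene epoxidase Sqle, -3.43 ± 0.18 for the sterol demethylase subunit Msmo1, -3.43 ± 0.22 for the farnesyl diphosphate synthase Fdps, -2.18 ± 0.16 for the mevalonate kinase Mvk and -1.57 ± 0.24 for the decarboxylase Mvd. Idi1 lies on the plus strand at chr13:8885501-8892451 and Cyp51 on the minus strand at chr5:4081145-4104746 (GRCm38).

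Srebf2, which encodes the activator of the pathway, fell less and was at 43.9, 34.2, 35.1 and 42.9 TPM on chow and 26.0, 22.8, 15.3 and 18.8 TPM with treatment (-0.90 ± 0.14, adjusted p 1.52e-05), with no overlap. In the vehicle mice all 24 were below chow as well, with a median of -1.91. Idi1 stood there at 1.23, 1.81, 2.99 and 2.57 TPM and Hmgcs1 at 58.5, 72.2, 79.7 and 77.1 TPM. Between treated and vehicle mice 2 of the 24 genes were higher and 4 lower, beside 3.95% higher and 31.2% lower over all genes. After rescaling 7 were higher and 1 lower. Sqle was lower with the agonist (-1.14, adjusted p 1.43e-05).

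Of 22 bile acid genes 6 rose and 9 fell, with a median of -0.24, beside 24.6% higher and 12.8% lower over all genes. Synthesis enzymes and transporters were each found among both the genes that rose and those that fell. Cyp7a1, the rate-limiting enzyme of bile acid synthesis, was at 41.0, 9.67, 22.2 and 13.5 TPM on chow and 60.0, 106, 111 and 49.8 TPM with treatment (1.99 ± 0.45, adjusted p 0.00101). Every treated mouse exceeded every chow mouse, chow mouse 1 being closest. The vehicle mice were at 21.0, 10.1, 11.3 and 15.6 TPM. Cyp8b1, which directs synthesis to cholic acid, was at 508, 530.4, 388 and 366 TPM on chow and 54.0, 80.5, 163 and 78.7 TPM with treatment (-2.34 ± 0.31, adjusted p 1.45e-06). Its level with the agonist was still above the 25.4, 12.8, 14.9 and 18.2 TPM of the vehicle mice (2.26, adjusted p 4.75e-06), so the treated mice lay between vehicle and chow. Cyp2c70, which makes the muricholic acids of mice, rose (60.2 to 128 TPM on chow, 279.8 to 361 TPM with treatment, 1.74 ± 0.19). Cyp27a1, which starts the alternative pathway, rose by 0.67 ± 0.12. The transporters that take bile acids up from blood were lower, Slco1a1 at -3.70 ± 0.40 and Slc10a1 at -0.81 ± 0.21. The export pump Abcb11 was lower too (-0.80 ± 0.22), whereas Abcc4, a pump towards blood, was higher (1.29 ± 0.28).

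**Figure D2:**
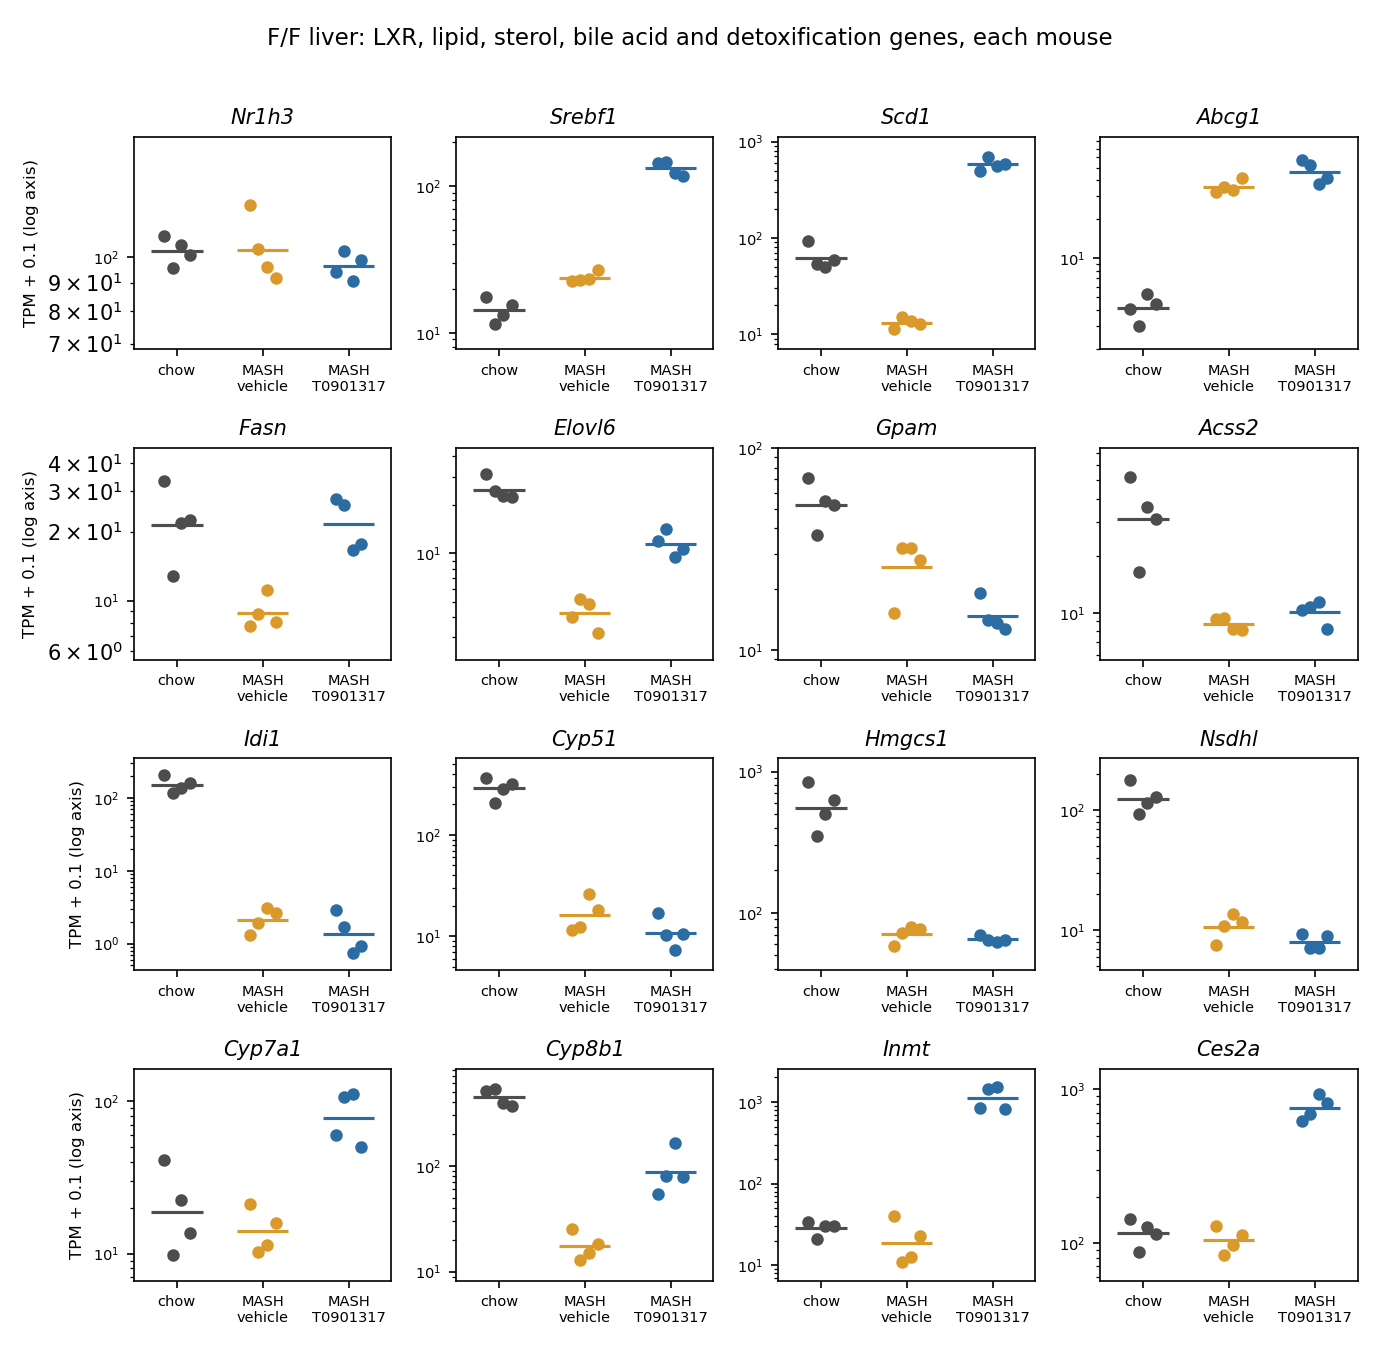
TPM plus 0.1 on a log axis in each F/F mouse (points, 4 per group) on chow, on MASH diet with vehicle and on MASH diet with T0901317, for 16 genes of lipid, sterol, bile acid and detoxification pathways; horizontal lines are group means of the log values. Srebf1, Scd1, Inmt and Ces2a separate the treated mice from both other groups, while Idi1, Cyp51 and Hmgcs1 are low in both diet groups.

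Enzymes that handle foreign compounds and sterols were largely higher. Of 25 such genes 13 rose and 3 fell against chow (median 1.00), beside 24.6% higher and 12.8% lower over all genes. Against vehicle 18 of the 25 were higher and none lower. Over all genes 3.95% were higher and 31.2% lower than on vehicle. Inmt, a methyltransferase (chr6:55170626-55175043, minus strand), was at 33.3, 21.0, 29.8 and 30.1 TPM on chow and 851, 1441, 1545 and 830.4 TPM with treatment, the second largest rise under the naming rule (5.26 ± 0.36, adjusted p 3.86e-12). The vehicle mice, at 39.5, 10.7, 12.4 and 22.8 TPM, overlapped the chow mice. Ces2a, a carboxylesterase, was at 142, 87.4, 126 and 113 TPM on chow and 626, 691, 933 and 820.0 TPM with treatment (2.70 ± 0.21, adjusted p 4.92e-11), again with vehicle overlapping chow (128, 83.1, 96.5 and 113 TPM). Por, the electron donor of the cytochromes P450, was at 118, 55.1, 121 and 123 TPM on chow and 498, 653, 676 and 588 TPM with treatment (2.58 ± 0.22, adjusted p 5.12e-10). Cyp2b10, a classical target of the receptor CAR, was low on chow at 1.32, 0.232, 2.48 and 1.23 TPM and at 4.49, 3.83, 21.99 and 35.6 TPM with treatment, higher in mice 3 and 4 than in mice 1 and 2 (2.49 ± 0.56, adjusted p 9.82e-04). Cyp2c29 rose (224 to 311 TPM on chow, 638 to 1428 TPM with treatment, 1.84 ± 0.26). Gstm3 and Cyp2a5 also rose (2.91 ± 0.52 and 2.87 ± 0.37), but 28.8% and 37.0% of their exon sequence is shared with relatives, so reads could be split between them. The sulfotransferase Sult2a8 went the other way, from 459, 263, 194 and 204 TPM on chow to 20.8, 40.3, 87.6 and 29.0 TPM with treatment (-2.75 ± 0.30, adjusted p 6.92e-08), above the 3.88, 3.51, 3.33 and 5.39 TPM of vehicle.

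Among PPAR-alpha targets, which burn fatty acids, 8 of 22 rose and 2 fell, beside 24.6% higher and 12.8% lower over all genes. No alternative run gave more than 8. After rescaling 6 rose, and 5 rose without chow mouse 2 or with array quality weights. Acaa1b, a peroxisomal thiolase, was at 209, 54.1, 136 and 157 TPM on chow and 1108, 1067, 1323 and 1077 TPM with treatment (3.18 ± 0.33, adjusted p 1.77e-08), with 30.5% of its sequence shared with other annotated genes. Ehhadh, another peroxisomal enzyme, was at 78.6, 58.4, 76.2 and 73.7 TPM on chow and 126, 154, 232 and 202 TPM with treatment (1.27 ± 0.20, adjusted p 1.30e-05). Both were above every chow mouse in every treated mouse. Ppara itself fell (43.9 to 72.6 TPM on chow, 13.4 to 22.2 TPM with treatment, -1.40 ± 0.30) and so did Cpt1a, the gate to mitochondrial oxidation (339 to 398 TPM on chow, 174 to 233 TPM with treatment, -0.86 ± 0.14).

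Hepatocyte genes for secreted proteins and for amino acid and sugar metabolism stayed below chow: 18 of 28 tested (29 listed) fell and none rose, with a median of -0.55. These counts stand beside 12.8% lower and 24.6% higher over all genes. The number that fell was 12 when only these groups were fitted. On recovered reads or without treated mouse 4, 1 rose and 16 fell. Oat, the ornithine aminotransferase, was at 1279.9, 1502, 1356 and 1449 TPM on chow and 298, 389.7, 652 and 559.9 TPM with treatment (-1.62 ± 0.18, adjusted p 1.42e-07). Tat, the tyrosine aminotransferase, was at 1786, 1675, 1304 and 1487 TPM on chow and 598, 399, 617 and 533 TPM with treatment (-1.55 ± 0.26, adjusted p 3.67e-05). Pck1, a control point of glucose production, was at 2733, 2683, 2545 and 2859.6 TPM on chow and 1518, 881, 1338 and 1125 TPM with treatment (-1.18 ± 0.25, adjusted p 4.54e-04). In these 3 genes the highest treated mouse lay well below the lowest chow mouse. Alb fell by less (-0.63 ± 0.19, adjusted p 0.0104, and 0.0549 when only the 2 groups were fitted), and Apoa1 was not called (0.24 ± 0.11, adjusted p 0.0922). Against vehicle 13 of the 28 were higher and 1 lower in the treated mice, beside 3.95% higher and 31.2% lower over all genes. After rescaling 17 were higher and none lower, so the treated livers lay between vehicle and chow in many of these genes. The summed level of the 28 genes was 135150 to 159390 TPM in chow, 82653 to 89530 TPM in vehicle and 101110 to 122430 TPM in treated mice.

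Genes that are male-biased or regulated by growth hormone were also lower, with 14 of 24 tested (28 listed) below chow. Above chow were 2, Serpina12 and Sult2a1. These counts stand beside 12.8% lower and 24.6% higher over all genes. When only these groups were fitted, 11 were lower and none higher. The summed level of the list overlapped, at 18306 to 42936 TPM in chow and 16760 to 19842 TPM in treated mice. Vehicle mice were at 4130 to 9394 TPM. Mup3, a major urinary protein, was at 9592, 6931, 3076 and 2597 TPM on chow and 925, 839.8, 1603 and 1376 TPM with treatment (-2.07 ± 0.40, adjusted p 1.86e-04). The growth hormone receptor Ghr fell (84.6 to 144 TPM on chow, 43.1 to 66.8 TPM with treatment, -0.90 ± 0.14). Mup7 was at 1451, 88.1, 31.8 and 26.5 TPM on chow, with mouse 1 alone above 1000, and 2.19, 2.02, 5.70 and 1.69 TPM with treatment (-4.84 ± 1.05, adjusted p 6.76e-04). Mup11 was at 327, 30.0, 7.68 and 6.47 TPM on chow and 0.787, 0.466, 1.01 and 0.234 TPM with treatment (-4.16 ± 0.82, adjusted p 2.58e-04). These 2 genes share 86.7% and 77.8% of their sequence with other Mup genes and lost their calls on recovered reads (adjusted p 0.101 and 0.0856). Without chow mouse 1 their differences were -3.57 and -2.98. Hsd3b5, a steroid dehydrogenase at 152, 6.79, 1.88 and 1.89 TPM on chow and 0.188 to 0.416 TPM with treatment, lost its call without chow mouse 1 (from -2.98 ± 0.90 to -1.67, adjusted p 0.0841), on recovered reads (adjusted p 0.178) and when only these groups were fitted (adjusted p 0.0805).

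Acute phase genes, made by hepatocytes in inflammation, were called higher in 2 of 23 (Orm3 and Il1rn) and lower in 4 (Fga, Fgg, Stat3 and Il6ra). Over all genes 24.6% were higher and 12.8% lower. Saa1 overlapped between groups (115 to 415 TPM on chow, 121 to 225 TPM with treatment, adjusted p 0.911). Lcn2 was at 173, 548, 237 and 389 TPM on chow and 818, 530.3, 356 and 829 TPM with treatment and was not called (0.97 ± 1.05, adjusted p 0.497). The vehicle mice were at 1745, 2252, 2238 and 2005 TPM. Orm3 rose (3.83 to 5.85 TPM on chow, 38.7 to 66.5 TPM with treatment, 3.26 ± 0.49, adjusted p 9.93e-06). The fibrinogen gene Fga, highest in chow mouse 2, had a difference of -0.96 ± 0.29 (adjusted p 0.00943) with that mouse and -0.53 (adjusted p 0.0849) without it, which also brought the genes lower in this list from 4 to 2.

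Markers of resident Kupffer cells were above chow in part. Of the 20 listed, 19 were tested, 7 rose and 1 fell (median 0.47), beside 24.6% higher and 12.8% lower over all genes. The summed level of the list was 497 to 624 TPM in chow, 509 to 643 TPM in vehicle and 553 to 774 TPM in treated mice. Cd5l, a secreted protein that macrophages make under LXR control (chr3:87357881-87371073, plus strand), had the largest rise under the naming rule, from 1.41, 2.22, 1.60 and 1.39 TPM on chow to 95.7, 109, 96.8 and 168 TPM with treatment (5.45 ± 0.38, adjusted p 5.87e-12). The vehicle mice, at 1.12, 2.04, 1.34 and 1.83 TPM, overlapped the chow mice (-0.04, adjusted p 0.933). Clec4f, a lectin restricted to Kupffer cells, was at 12.4, 13.7, 12.9 and 5.84 TPM on chow, 0.460, 0.280, 0.508 and 0.168 TPM on vehicle and 29.3, 26.6, 28.2 and 37.3 TPM with treatment (1.41 ± 0.27, adjusted p 2.13e-04). Vsig4, a complement receptor of these cells, was at 5.21, 5.44, 9.88 and 3.36 TPM on chow, 1.53, 0.465, 1.61 and 0.906 TPM on vehicle and 18.6, 16.7, 15.4 and 28.8 TPM with treatment (1.62 ± 0.31, adjusted p 1.73e-04). In both genes the 3 groups did not overlap, and the order was vehicle, chow, treated. Timd4, a marker of long-lived Kupffer cells, was low in these F/F mice (0 to 0.0563 TPM on chow, 0.134 to 0.730 TPM with treatment). Its difference was not called (adjusted p 0.267) but was with a pseudocount of 0.1 (adjusted p 0.0301). Cd163 was also low in the chow and treated mice (0.0753 to 0.277 and 0 to 0.124 TPM). Both genes passed the filter for testing, so some other livers of the series reached the minimum TPM. Marco did not pass the test (1.00 ± 0.59, adjusted p 0.188), and C6, which hepatocytes also make, fell (-1.15 ± 0.26).

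Genes of lipid-associated macrophages, the cells that gather around fat and dead hepatocytes, had the largest share above chow among the immune lists. Beside 24.6% higher and 12.8% lower over all genes, 20 of these 24 genes rose and none fell, with a median of 1.18. Their summed level, most of it Apoe that hepatocytes make too, was 15569 to 19451 TPM in chow, 29526 to 35616 TPM in vehicle and 30755 to 33123 TPM in treated mice, so treated and vehicle mice overlapped in this sum. Gpnmb, a transmembrane glycoprotein of these cells, was at 28.5, 25.7, 47.3 and 37.8 TPM on chow and 165, 194, 143 and 225 TPM with treatment (2.37 ± 0.53, adjusted p 9.32e-04). Trem2, their lipid receptor, was at 5.42, 3.59, 8.58 and 7.50 TPM on chow and 32.6, 31.2, 22.5 and 25.9 TPM with treatment (2.04 ± 0.27, adjusted p 1.26e-06). Lgals3, galectin-3, was at 22.1, 21.8, 39.1 and 39.5 TPM on chow and 205, 196, 124 and 207 TPM with treatment (2.57 ± 0.46, adjusted p 8.26e-05). The vehicle mice stood higher still in all 3 without overlap with the treated mice, at 515, 497, 461 and 601 TPM for Gpnmb, 63.5, 55.3, 43.6 and 59.2 TPM for Trem2 and 585, 559, 498 and 610.0 TPM for Lgals3. Over the list all 24 genes were above chow on vehicle, beside 46.5% of all genes. In treated mice 16 were lower and 1 higher than on vehicle (10 and 1 after rescaling), beside 31.2% and 3.95% of all genes as deposited. Spp1, osteopontin, was above chow on vehicle (2.07, adjusted p 6.02e-07) but not with the agonist (718, 698, 681 and 933 TPM on chow and 1582, 1277, 700.1 and 744 TPM with treatment, 0.43 ± 0.29, adjusted p 0.251).

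Lysosomal genes followed a similar order, with 17 of 27 higher and 1, Lamp2, lower than chow (median 0.75). These counts stand beside 24.6% higher and 12.8% lower over all genes. In treated mice 23 of 27 were lower than on vehicle (12 after rescaling), beside 31.2% of all genes as deposited and 1327 of 16638 after rescaling. Ctss, a cathepsin of antigen-presenting cells, was at 183, 164, 276 and 217 TPM on chow, 1833, 1746, 1389.7 and 1872 TPM on vehicle and 889.8, 748, 564 and 799 TPM with treatment (1.84 ± 0.42, adjusted p 0.00117). Cd63, a membrane protein of late endosomes, was at 159, 108, 222 and 231 TPM on chow and 684, 965, 501 and 684 TPM with treatment (2.00 ± 0.34, adjusted p 5.00e-05). Genes of monocyte entry and inflammatory macrophages were higher than on chow in 12 of 24 cases and lower in none, beside 24.6% higher over all genes. Without chow mouse 2 or without treated mouse 1, 8 were higher. The summed level of the list was 462 to 653 TPM in chow, 1585 to 2076 TPM in vehicle and 980 to 2265 TPM in treated mice. No gene of the list was at 0 in any of these groups, and the part of cell number in these results was not tested. Ccl2, the chemokine that draws monocytes, was at 4.84, 2.69, 10.6 and 8.86 TPM on chow and 24.3, 20.3, 11.1 and 32.8 TPM with treatment (1.62 ± 0.56, adjusted p 0.0235). Treated mouse 3 lay just above the highest chow mouse, and the call was lost without chow mouse 1, chow mouse 2, treated mouse 1 or treated mouse 4 (adjusted p 0.0547, 0.0956, 0.0572 and 0.0705) and with a pseudocount of 0.1 (adjusted p 0.0684). The monocyte receptor Ccr2 and the cytokine Tnf were not called (0.31 ± 0.32 and 0.47 ± 0.38, adjusted p 0.472 and 0.338).

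Of 17 neutrophil genes listed, 15 were tested. Of these 3 rose (Ly6g, Csf3r and Chil3) and none fell, a share near the 24.6% higher over all genes, and 1 rose without treated mouse 1 and 5 without chow mouse 4 or treated mouse 3. S100a9, an abundant neutrophil protein, was at 20, 10.1, 22.5 and 27.6 TPM on chow, 135, 219, 76.2 and 159 TPM on vehicle and 47.9, 27.9, 9.98 and 22.1 TPM with treatment (0.30 ± 0.50, adjusted p 0.674). Ngp, a granule protein, was at 1.82, 0.901, 1.52 and 3.73 TPM on chow, 31.5, 50.9, 14.2 and 33.9 TPM on vehicle and 6.99, 4.81, 1.48 and 3.09 TPM with treatment (0.72 ± 0.39, adjusted p 0.142, and 0.0429 without treated mouse 3). The treated mice overlapped chow and lay below every vehicle mouse in both genes. Of the list, 12 of the 15 were lower than on vehicle, before and after rescaling, beside 31.2% of all genes as deposited. Whether the treated mice equal chow was not shown, since a difference that misses the threshold may still exist.

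Lymphocyte genes were above chow in 9 of 15 tested (19 listed), with none below and 6 above without treated mouse 1. The share higher over all genes was 24.6%. Trbc2, a T cell receptor constant region, was at 1.90, 2.47, 1.34 and 0.784 TPM on chow and 6.54, 9.03, 3.93 and 7.45 TPM with treatment (1.56 ± 0.39, adjusted p 0.00228, with 44.0% of its sequence shared). Cd8a, of cytotoxic T cells, was at 0.226, 0.269, 0.384 and 0.507 TPM on chow and 2.11, 1.65, 0.778 and 1.29 TPM with treatment (0.84 ± 0.22, adjusted p 0.00332). Igkc, the antibody kappa light chain, was at 16.4, 6.90, 10.3 and 7.75 TPM on chow and 171, 34.1, 17.7 and 34.1 TPM with treatment. Treated mouse 1 stood far above the others (2.05 ± 0.51, adjusted p 0.00235, and 1.40 without that mouse). The summed level of the list was 19.3 to 34.9 TPM in chow, 129 to 326 TPM in vehicle and 43.9 to 232 TPM in treated mice. Class II MHC genes, which present antigen, did not overlap between treated and chow mice in 9 of 10 cases, all higher. Over all genes 29.8% did not overlap, in either direction. The test was passed by 4, by 1 without chow mouse 2, chow mouse 4, treated mouse 1 or treated mouse 2, and by 9 on recovered reads. H2-Aa was at 115, 85.9, 102 and 81.7 TPM on chow, 163, 125, 94.1 and 132 TPM on vehicle and 362, 249, 182 and 208 TPM with treatment (1.34 ± 0.55, adjusted p 0.0563, 0.00346 when only the 2 groups were fitted, and 0.028 with array quality weights). Of 24 interferon-stimulated genes 4 rose (Oasl2, Oas1a, Irf7 and Bst2) and 2 fell (Rsad2 and Ifih1), beside 24.6% higher and 12.8% lower over all genes. Only 1 rose without chow mouse 1, chow mouse 2, treated mouse 1 or treated mouse 2.

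**Figure D3:**
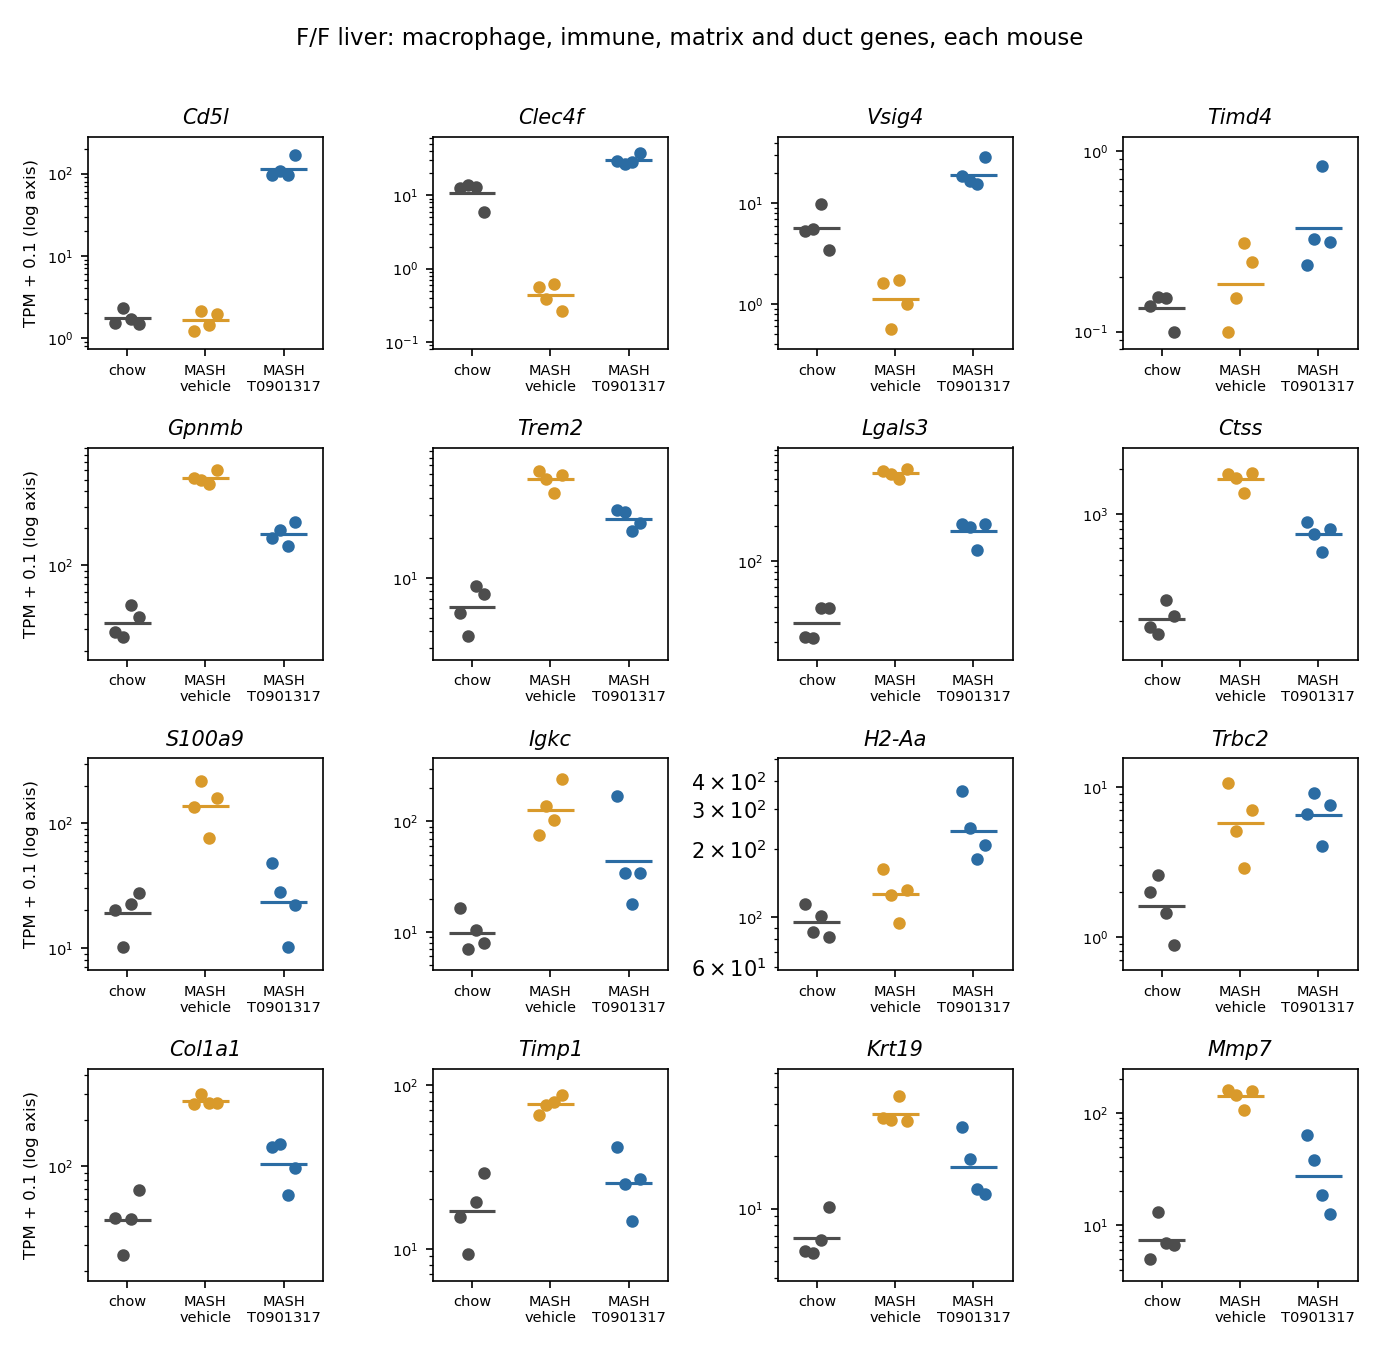
TPM plus 0.1 on a log axis in each F/F mouse (points, 4 per group) on chow, on MASH diet with vehicle and on MASH diet with T0901317, for 16 genes of macrophages, other immune cells, matrix and bile ducts; horizontal lines are group means of the log values. Cd5l, Clec4f and Vsig4 are highest with T0901317, Gpnmb, Trem2, Lgals3 and Ctss lie between chow and vehicle, and S100a9 overlaps chow.

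Of 18 collagens, the main proteins of scar matrix, 6 rose and none fell against chow, beside 24.6% higher over all genes. The number that rose was 4 without chow mouse 2 and 12 without chow mouse 4 or treated mouse 3 or on recovered reads. Col1a1, the main fibrillar collagen, was at 45.2, 25.5, 44.3 and 69.1 TPM on chow, 255, 299, 261 and 261 TPM on vehicle and 132, 139, 63.8 and 96.5 TPM with treatment (1.23 ± 0.39, adjusted p 0.0146). Treated mouse 3 fell within the chow range, and the call was lost without chow mouse 2 (0.98, adjusted p 0.0715) or treated mouse 2 (1.09, adjusted p 0.0523). The chow level of F/F mice, 46.0 ± 17.85 TPM, was itself above that of W/W (3.11 ± 0.75 TPM) and W/F chow mice (4.16 ± 0.285 TPM, mean ± SD, n = 4 each). Col6a1, a beaded-filament collagen, was at 22.1, 10.5, 17.9 and 24.0 TPM on chow and 57.0, 48.3, 29.1 and 39.1 TPM with treatment with no overlap (1.20 ± 0.27, adjusted p 0.00108). Col3a1 was not called (0.51 ± 0.35, adjusted p 0.255). Among 25 tested genes of matrix enzymes and crosslinkers (26 listed) 13 rose and none fell, and 8 rose without treated mouse 1 and 7 when only these groups were fitted. Mmp7, a protease also made by bile duct cells, was at 4.85, 12.8, 6.75 and 6.50 TPM on chow and 63.2, 37.5, 18.3 and 12.3 TPM with treatment (1.77 ± 0.35, adjusted p 2.56e-04), where treated mouse 4 lay below chow mouse 2. Timp1 and the crosslinker Lox were not called (0.55 ± 0.36 and 0.07 ± 0.20, adjusted p 0.239 and 0.816), although both were above chow on vehicle (2.11 and 1.52, adjusted p 1.43e-05 and 1.51e-07).

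Stellate cell and myofibroblast markers (28 listed) rose in 16 of 27 tested and fell in 1, rose in 9 without chow mouse 2, treated mouse 1 or treated mouse 2, rose in 8 when only these groups were fitted, and fell in 4 without chow mouse 2. Among all 16638 genes, 24.6% rose and 12.8% fell in the main fit, and 2776 genes rose when only these groups were fitted. Cygb, cytoglobin of stellate cells, was at 36.4, 25.0, 33.7 and 42.9 TPM on chow and 96.5, 90.4, 53.2 and 60.9 TPM with treatment (1.08 ± 0.21, adjusted p 1.93e-04). Acta2, smooth muscle actin of activated myofibroblasts, overlapped (7.52, 4.19, 6.40 and 14.1 TPM on chow, 9.18, 15.2, 5.15 and 14.3 TPM with treatment, adjusted p 0.394). Hgf, the growth factor that stellate cells supply to hepatocytes, fell (-0.81 ± 0.17, adjusted p 5.30e-04). The summed level of the list was 491 to 902 TPM in chow, 1748 to 2135 TPM in vehicle and 828 to 1464 TPM in treated mice. Bile duct and ductular genes rose in 15 of 20 and fell in none, with a median of 0.97, beside 24.6% higher over all genes. Krt19, a duct keratin, was at 5.58, 5.47, 6.46 and 10.1 TPM on chow and 29.2, 19.02, 12.8 and 12.1 TPM with treatment (1.24 ± 0.22, adjusted p 7.78e-05). Sox9, a factor of duct and progenitor cells, was at 8.47, 6.92, 10.3 and 12.3 TPM on chow and 26.6, 26.4, 15.4 and 15.5 TPM with treatment (1.05 ± 0.21, adjusted p 3.31e-04). Both were separate from chow and below vehicle in mean (-0.98 and -0.91, adjusted p 0.00137 and 0.00186). The summed level of the duct list was 1757 to 3307 TPM in chow, 6420 to 7920 TPM in vehicle and 3043 to 5438 TPM in treated mice, and the part of cell number was not tested. Against vehicle 15 of 18 collagens, 16 of 25 matrix enzyme genes, 15 of 27 stellate genes and 16 of 20 duct genes were lower in treated mice. After rescaling these were 8, 11, 10 and 11. Over all 16638 genes 31.2% were lower than on vehicle as deposited, and 1327 genes after rescaling. Of 20 endothelial genes 3 rose and 5 fell against chow, beside 24.6% higher and 12.8% lower over all genes. The number that rose was 1 without chow mouse 2, treated mouse 1 or treated mouse 2, 5 without treated mouse 4 and 6 without treated mouse 3.

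**Figure D4:**
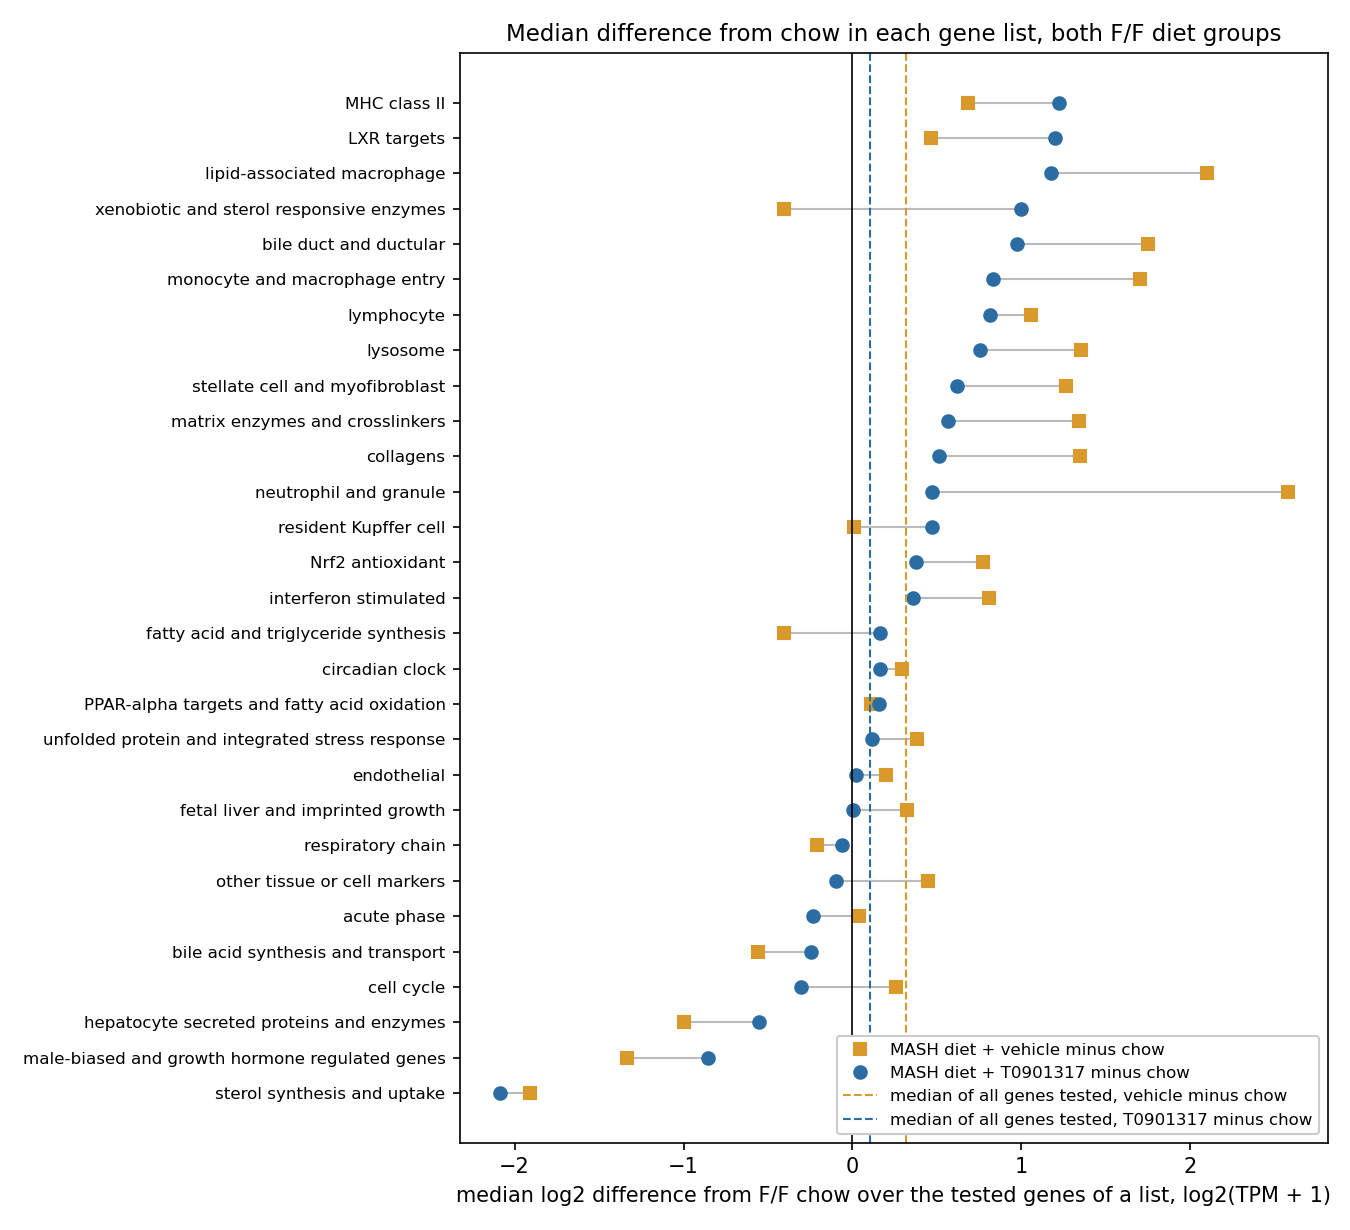
Median log2 difference from F/F chow over the tested genes of each list (rows), for MASH diet with vehicle (squares) and MASH diet with T0901317 (circles), on log2(TPM + 1); dashed lines are the medians of all 16638 genes, 0.32 and 0.11. The medians of the lipid-associated macrophage, monocyte, neutrophil, matrix enzyme and duct lists lie closer to 0 with T0901317 than with vehicle, and sterol synthesis lies at -1.91 with vehicle and -2.09 with T0901317.

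Stress and growth genes gave a mixed picture, to be read beside 24.6% of all genes higher and 12.8% lower than on chow. Gadd45b and Gadd45a, which are induced by cell stress, were among the largest rises. Gadd45b was at 8.05, 9.76, 13.4 and 11.8 TPM on chow and 115, 89.0, 106 and 138 TPM with treatment (3.27 ± 0.23, adjusted p 4.60e-12). Gadd45a was at 2.98 to 7.08 TPM on chow and 32.1 to 58.9 TPM with treatment (2.98 ± 0.25). Gdf15, a stress hormone that lowers food intake, was at 11.2, 7.07, 20.2 and 9.19 TPM on chow and 80.2, 56.1, 75.6 and 144 TPM with treatment (2.81 ± 0.53, adjusted p 1.55e-04). Asns, the asparagine synthetase, fell from 51.6, 67.3, 42.2 and 41.8 TPM on chow to 5.10, 7.75, 8.24 and 14.98 TPM with treatment (-2.43 ± 0.51, adjusted p 5.14e-04). Of 21 genes of the unfolded protein and integrated stress response 9 rose and 2 fell as deposited, and 5 rose and 5 fell after rescaling, and 5 rose without chow mouse 1 or chow mouse 2. Of 21 Nrf2 antioxidant genes 9 rose and none fell. Cell cycle genes were called higher in 1 and lower in 6 of 26, with none lower without chow mouse 3 or treated mouse 3 and 3 lower without chow mouse 4, and Mki67 was not called (-0.40 ± 0.25, adjusted p 0.215). Of 19 clock genes 5 rose and 3 fell, and none rose without chow mouse 2, 1 without chow mouse 4, treated mouse 2 or treated mouse 3, and 3 without chow mouse 3. Of 23 respiratory chain genes 5 fell and 3 rose, 1 after rescaling or without chow mouse 2.

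Non-coding RNAs of the imprinted cluster on chromosome 12 fell together. Meg3 was at 31.4, 36.4, 47.1 and 28.1 TPM on chow, 23.7, 24.6, 13.1 and 11.2 TPM on vehicle and 4.93, 5.40, 4.46 and 3.30 TPM with treatment (-2.72 ± 0.20, adjusted p 2.31e-11). Rian was at 18.0, 15.3, 21.7 and 13.3 TPM on chow, 7.54, 10.3, 4.80 and 3.95 TPM on vehicle and 1.32, 1.81, 1.61 and 1.20 TPM with treatment (-2.85 ± 0.18, adjusted p 7.34e-13). Mirg, of the same cluster, was at 1.81 to 3.79 TPM on chow and 0.164 to 0.386 TPM with treatment (-1.48 ± 0.14, adjusted p 3.70e-09). In all 3 the treated mice were lowest, with no overlap with chow or vehicle. They belong to a list of 19 tested fetal and imprinted genes (23 listed) of which 3 rose and 6 fell. Without chow mouse 4, 5 rose and 4 fell. Over all genes 24.6% were higher and 12.8% lower. H19 was not called (0.15 ± 0.41, adjusted p 0.810).

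Further genes that the naming rule gave were Ubd, a ubiquitin-like protein induced by cytokines (31.1 to 75.7 TPM on chow, 336 to 609 TPM with treatment, 3.01 ± 0.63), the aldose reductase relative Akr1b7 (0 to 1.78 and 12.1 to 18.1 TPM, 3.17 ± 0.30) and Adam11 (0.804 to 1.20 and 13.0 to 20.6 TPM, 3.16 ± 0.24). The sulfotransferase Sult2a2 rose as well (0.111 to 0.942 and 3.97 to 58.8 TPM, 3.93 ± 0.48). Of its sequence 62.1% is shared with relatives, and its difference was 3.41 without treated mouse 3 and 4.61 without treated mouse 2. Cyp2a4 rose too (3.29 ± 0.51, with 38.0% shared). Tff3, a trefoil peptide, fell (143 to 581 TPM on chow, 11.96 to 44.2 TPM with treatment, -3.79 ± 0.79), and so did the non-coding Gm15611 (24.5 to 197 TPM on chow, 1.62 to 3.86 TPM with treatment, -3.94 ± 0.64, and -3.35 without chow mouse 2). Serpina1e, a protease inhibitor gene with 34.6% shared sequence, fell (2942 to 15358 TPM on chow, 145 to 438 TPM with treatment, -4.85 ± 0.57), and the difference of Selenbp2, with 43.9% shared, was -3.41 ± 0.66. The rule also gave Mir7675 (3.00 ± 0.73), Mir6993 (-3.47 ± 0.63) and Gm22935 (-3.67 ± 0.68), short annotations that lie inside Smc6, Fads1 and Fdps, whose reads they may share.

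The same contrast was set beside that of W/W and W/F mice. The difference between F/F and W/W in the change from chow was called for 1534 genes (9.22%), 966 (5.81%) higher and 568 (3.41%) lower in F/F, or 620 higher and 1050 lower after rescaling. The number higher was 568 without F/F treated mouse 1 and 580 without F/F treated mouse 2. Without F/F chow mouse 2 fewer were higher than lower, 586 against 654. Between F/F and W/F it was called for 168 genes (1.01%), 113 (0.679%) higher and 55 (0.331%) lower, or 75 higher and 91 lower after rescaling. This count of 168 ranged from 81 without F/F treated mouse 1 to 501 without W/F treated mouse 2. Other libraries that moved it by more than 1.5 times when left out were F/F treated mice 2 and 3 (100 and 321), F/F chow mouse 2 (102), W/F chow mouse 2 (111) and W/F treated mouse 1 (90). Fatty acid synthesis separated F/F from W/W: 15 of 24 genes had a lower change in F/F and none a higher one, while against W/F only Scd1 differed. Fasn was at 146 ± 44.7 TPM on chow and 841 ± 177 TPM with treatment in W/W, against 22.5 ± 8.42 and 21.98 ± 5.75 TPM in F/F (mean ± SD, n = 4 each; difference of changes -2.55, adjusted p 0.00568). Elovl6 behaved likewise (-3.19, adjusted p 1.29e-06). Pnpla3, a lipid droplet enzyme, was at 75.8 ± 15.6 TPM in treated W/W and 1.14 ± 0.654 TPM in treated F/F mice (-4.06, adjusted p 9.97e-07).

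Srebf1, the activator of these genes, rose from 123 ± 7.66 to 675 ± 33.6 TPM in W/W and from 14.3 ± 2.58 to 133 ± 15.1 TPM in F/F. The difference of the log2 changes was not called (0.70, adjusted p 0.149, and 0.0163 when only the groups compared were fitted). Scd1 went from 38.3 ± 18.0 to 1900.2 ± 242 TPM in W/F, a larger change than in F/F (-2.49, adjusted p 0.00122). Abcg5 and Abcg8 had a lower change in F/F than in W/W (-1.64 and -1.57, adjusted p 0.00178 and 0.00936). Of 22 PPAR-alpha targets 11 had a lower change in F/F than in W/W and none a higher one, beside 3.41% lower over all genes. Against W/F none of the 22 was called, and 1 was lower after rescaling.

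Sterol synthesis also differed, in a different way for each genotype. Of 24 genes 17 fell more in F/F than in W/W and none less, whereas 13 (10 after rescaling) fell less in F/F than in W/F and none more. Among all genes 3.41% had a lower change in F/F than in W/W, and 0.679% had a higher change than in W/F. Idi1 went from 89.0 ± 23.1 to 16.5 ± 3.56 TPM in W/W (-3.67, adjusted p 7.75e-09). In W/F it went from 212 ± 21.2 to 1.21 ± 0.388 TPM, and the difference from F/F was not called (0.57, adjusted p 0.367). For Hmgcs1 the change in F/F lay between those of W/F and W/W (1.79 against W/F, adjusted p 0.00122, and -1.58 against W/W, adjusted p 8.56e-04), and so did that of Sqle (1.86 and -2.72, adjusted p 9.28e-05 and 7.75e-09).

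The large rises of Cd5l and Inmt in F/F started from low chow levels. Cd5l stood on chow at 57.8 ± 12.1, 29.2 ± 13.9 and 1.66 ± 0.390 TPM in W/W, W/F and F/F mice, and with treatment at 137 ± 46.2, 139 ± 153 and 117 ± 34.3 TPM (mean ± SD, n = 4 each). Inmt stood on chow at 1063 ± 481, 489 ± 215 and 28.6 ± 5.28 TPM in the same order, and with treatment at 2956 ± 138, 2074 ± 257 and 1167 ± 379 TPM. The changes differed from W/W by 4.26 and 3.68 (adjusted p 4.18e-06 and 1.71e-05). Csad, which makes taurine for bile acid conjugation, rose in F/F from 59.1, 22.8, 36.7 and 46.9 TPM on chow to 183, 167, 181 and 202 TPM with treatment (2.20 ± 0.30), while its W/W level went from 482 ± 93.6 to 363 ± 101 TPM (2.62, adjusted p 1.34e-04). Cfd, a complement protease best known from fat cells, reached 82.8 ± 25.3 TPM in treated W/W and 146 ± 73.6 TPM in treated W/F mice. In the 4 treated F/F mice it stood at 1.11, 0.531, 0.982 and 1.40 TPM (-4.97 and -5.65, adjusted p 1.61e-04 and 1.62e-04, the latter 0.0514 on recovered reads). Meg3 was near 0 in W/W, at 0.453 ± 0.0445 TPM on chow and 0.230 ± 0.105 TPM with treatment, so its fall in F/F started from a chow level that W/W mice did not have (-2.48, adjusted p 9.49e-07, and 0.068 on recovered reads).

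**Figure D5:**
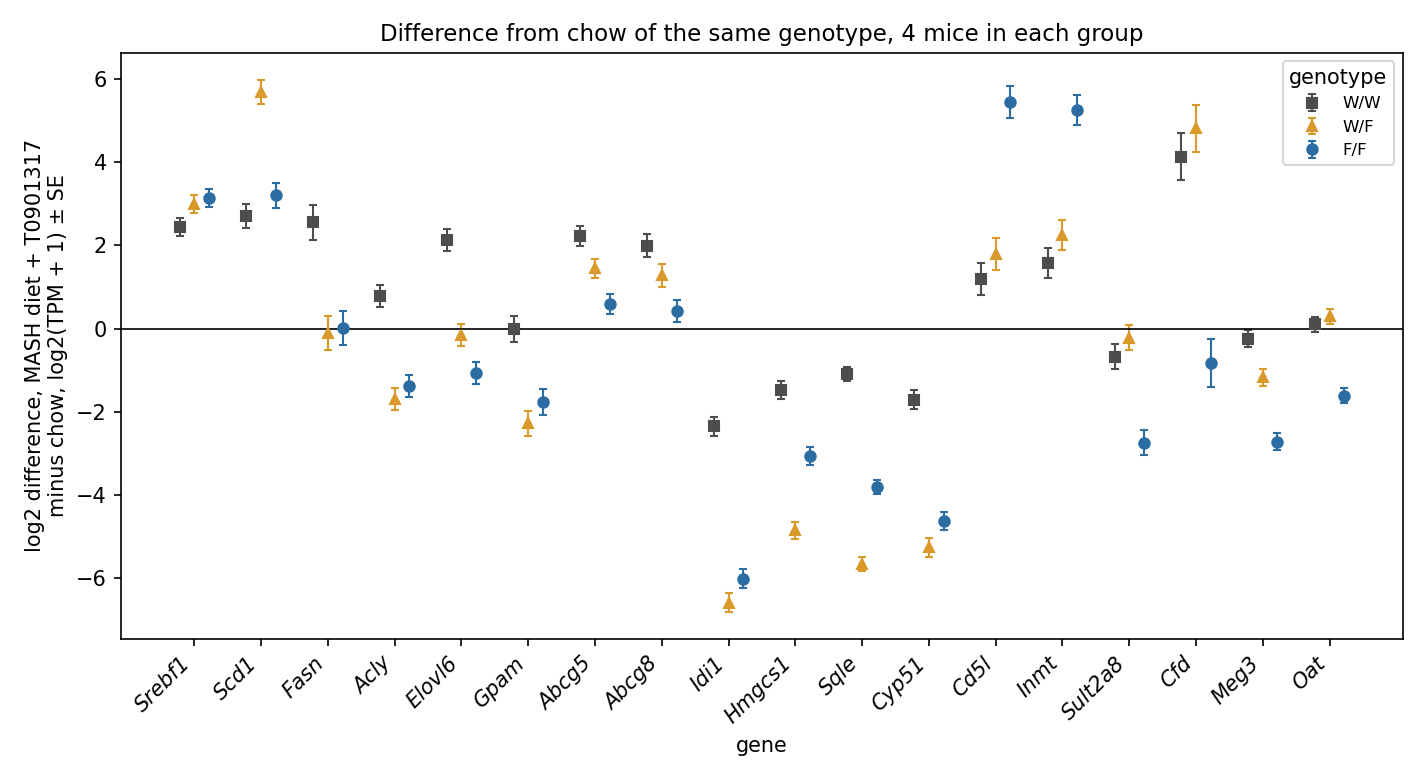
Log2 difference between MASH diet with T0901317 and chow, on log2(TPM + 1) with its standard error, in W/W (squares), W/F (triangles) and F/F (circles) mice, 4 mice per group, for 18 genes. Fasn, Acly and Elovl6 lie above 0 in W/W and not in F/F, Idi1, Hmgcs1 and Sqle fall most in W/F, and Cd5l, Inmt, Sult2a8, Meg3 and Oat have their largest differences in F/F.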

How the data were processed

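The submitters' processing notes name Trimmomatic 0.36, STAR 2.5.2b, featureCounts of Subread 1.5.2 and the build GRCm38 (mm10), without their settings. The authors deposited TPM per Ensembl gene for all 36 livers, and whether counting used strand is not given in the sources used here. Whole reads recovered from the lowest TPM steps gave the depths above: 93.7% to 95.6% of low genes came out whole within 0.1 read. Genes at 1 TPM or more in at least 4 samples (16638) were fitted as log2(TPM + 1) with limma 3.58.1 (R 4.3.3, trend, no robust option) on 9 group means, with Benjamini-Hochberg adjustment over all genes. Fold changes are on this scale, which understates changes of low genes. Alternatives were a pseudocount of 0.1, at least 5 TPM, no filter, median-of-ratios rescaling, array quality weights, a block for the replicate number, only the groups compared, and each mouse left out. Limma-voom on the recovered reads was added after the data were seen. All 8 mice entered the fit and none was imputed. Of 49315 gene identifiers 49056 matched GENCODE M21, the source of positions and of shared 50-base stretches. The gene lists and the contrast were chosen with earlier results of these data known. Named genes had to be called before and after rescaling, with groups apart and a group mean of 5 TPM or more, and the 15 largest and 15 smallest were taken. List members were chosen as examples by their level or difference. Some members of the lists are not reported here by name. The fitting code was tested on simulated data.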

Additional observations from a re-analysis of the deposited data

Results flagged for a closer look

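The change from chow to MASH diet with T0901317 differed between F/F and the other genotypes in the genes below, chosen as the 5 largest and 5 smallest called differences of each comparison that were called in the same direction after rescaling. Against W/W the log2 change was greater in F/F by 4.26 for Cd5l, 3.70 for Sult2a2, 3.68 for Inmt, 3.15 for the glutathione transferase Gstp2 (54.3% of its sequence shared) and 3.12 for Gm11702, a pseudogene inside Grb2 whose sequence is all shared. It was smaller in F/F for Cfd (-4.97), Mir6392 (-4.30), Pnpla3 (-4.06), the class I gene H2-Q1 (-3.98, partly shared) and B430219N15Rik (-3.86), where Mir6392 lies inside Pnpla3 and B430219N15Rik is antisense to Ginm1. Against W/F it was greater for Sult2a2 (3.92), Cd5l (3.65), Inmt (3.02), Gm15998 (2.88), which is antisense to Efna3, and Csad (2.69). It was smaller for Cfd (-5.65), the small nucleolar RNA DQ267102 within Rian (-2.71), Sult2a8 (-2.52), Scd1 (-2.49) and Cyp4a12b (-2.31, 49.4% shared). Without strand-specific counting, reads of a gene and of an antisense or nested partner cannot be told apart.

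Among F/F mice, single samples stood apart from the other 3 of their group in 24 of 248 gene and group pairs examined (9.68%). The cut-off passes about 1 in 20 for independent values with a normal spread. These genes were picked for the text and can vary together within a mouse, so the share was not compared with chance. In chow mouse 1, Ghr was highest at 144 TPM against 84.6 to 91.7 TPM, Hsd3b5 was highest at 152 TPM against 1.88 to 6.79 TPM and Mup11 was highest at 327 TPM against 6.47 to 30.0 TPM. In the same mouse, Mup7 was highest at 1451 TPM against 26.5 to 88.1 TPM, Ppara was highest at 72.6 TPM against 43.9 to 48.5 TPM and Thrsp was highest at 52.7 TPM against 7.37 to 13.4 TPM. In chow mouse 2, Abcb11 was lowest at 191 TPM against 314 to 322 TPM, Apoe was lowest at 11801 TPM against 14412 to 14908 TPM and Fga was highest at 12297 TPM against 3389 to 4090 TPM. In the same mouse, Gm15611 was highest at 197 TPM against 24.5 to 48.9 TPM and Por was lowest at 55.1 TPM against 118 to 123 TPM. In chow mouse 4, Clec4f was lowest at 5.84 TPM against 12.4 to 13.7 TPM and Spp1 was highest at 933 TPM against 681 to 718 TPM. In treated mouse 1, Igkc was highest at 171 TPM against 17.7 to 34.1 TPM and Mir6993 was highest at 2.25 TPM with the other 3 at 0. In treated mouse 2, Abcb11 was lowest at 137 TPM against 167 to 171 TPM, Selenbp2 was highest at 132 TPM against 48.4 to 54.4 TPM and Slco1a1 was highest at 9.03 TPM against 5.32 to 5.67 TPM. In treated mouse 3, Acaa1b was highest at 1323 TPM against 1067 to 1108 TPM, Lgals3 was lowest at 124 TPM against 196 to 207 TPM and Mup7 was highest at 5.70 TPM against 1.69 to 2.19 TPM. In the same mouse, Timd4 was highest at 0.730 TPM against 0.134 to 0.226 TPM. In treated mouse 4, Ppara was lowest at 13.4 TPM against 20.8 to 22.2 TPM and Thrsp was lowest at 26.2 TPM against 86.6 to 97.0 TPM.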

How the results depend on the processing

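For treated against chow F/F mice the number of genes called kept within 1.5 times of 6227 in every alternative run, from 4444 when only these groups were fitted to 6884 on recovered reads, and from 4933 to 6204 with 1 mouse left out. Of 100 named genes called there, 91 kept their call in every alternative and 9 lost it in at least 1, and none changed direction. Many of them were named for a large difference, or had to be called after rescaling with groups apart. Their kept calls and directions were thus in part set by that choice and do not speak for genes in general. Against vehicle the count of 5841 became 2712 after rescaling and ranged from 3244 to 6361 with 1 mouse left out, and for vehicle against chow from 8244 to 9243. For the difference between F/F and W/W it became 2466 with array quality weights and ranged from 1043 to 1804 with 1 mouse left out. For F/F against W/F it became 104 with a pseudocount of 0.1, 497 with array quality weights and 59 when only those groups were fitted, and ranged from 81 to 501 with 1 mouse left out, and the cause was not tested. With 1 mouse left out, the difference in genes at 1 TPM or more ranged from 320 to 640.5 and that in the share of the 100 most abundant genes from -3.74 to -1.47 percentage points. Same-numbered treated and chow mice correlated at -0.04, -0.05, -0.04 and 0.10 in their deviations from group means, so the numbers do not pair them, and with the replicate number as a block 6315 genes were called against chow, 6041 against vehicle, 9366 for vehicle against chow, 1531 against W/W and 174 against W/F. Low TPM limit the small fold changes of scarce genes, which the pseudocount of 1 shrinks.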
